A study of Homo sapiens with 6 samples.

Results

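The genes described here are 40 DNA repair genes, chosen by symbol from homologous recombination, the Fanconi anemia pathway, mismatch and base excision repair, end joining and the kinases that signal damage. They are 40 of the 54261 rows of a count table made from RNA of PC9/GR cells, a human lung cancer cell line grown from PC9. All 40 had a row, 38 had enough reads to be tested, and RBBP8 and FANCB did not. The 6 libraries were all of PC9/GR. Of these, 3 were from cells given a control small interfering RNA (siRNA; si-NC) and 3 from cells given an siRNA against MYLK-AS1 (si-MYLK-AS1), a long non-coding RNA antisense to the myosin light chain kinase gene. The labels state no siRNA sequence, dose or harvest time, and do not say that the repeats were separate cultures. The p-values then cover only the spread among these 6 samples, and that spread may be technical. The series title is about glutamine use and resistance to EGFR inhibitors, and names no question about repair.

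A broken chromosome can be mended by homologous recombination, which copies the lost bases from the sister chromatid after S phase. The MRE11, RAD50 and NBN complex with CtIP (the product of RBBP8) starts to trim the ends, EXO1 and helicases such as BLM extend the trimming, and BRCA1, PALB2 and BRCA2 prepare the bared strand for its search for the matching sequence. Fanconi proteins unhook crosslinks between strands, and non-homologous end joining seals ends without a template through Ku, DNA-PKcs, XRCC4 and LIG4. Many recombination genes are transcribed mostly in S and G2 phase, as part of the program driven by E2F factors, whereas Ku and DNA-PKcs are abundant throughout the cycle in human cells.

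Library totals ran from 7551303 to 11055408 reads. MYLK-AS1 had 20, 16 and 19 reads in the control libraries and 0, 5 and 4 in the knockdown libraries (log2 fold change -2.43, SE 0.60, adjusted p = 0.00326 by edgeR's quasi-likelihood test). MYLK, the myosin light chain kinase gene itself, fell too (log2 fold change -0.69, SE 0.13, adjusted p = 0.000464 by the same test). Why MYLK fell was not tested. Within each group the third library lay farthest from the others, with a chi-square per degree of freedom of 9.29 to 9.83 in the control and 7.46 to 9.98 in the knockdown, against 2.38 and 4.90 between the first 2 libraries. Of 10 lung and epithelial markers 9 had reads, and their summed level was 11849 to 13871 CPM (counts per 1000000 reads, with library totals scaled by TMM factors) in the control and 7626 to 8230 in the knockdown. KRT7, KRT8 and KRT18 made up nearly all of it, and these 3 keratins fell, whereas KRT19 rose from 84.0 ± 9.89 to 109 ± 5.52 CPM (SD, n = 3 each). CDH1 fell too, from 96.7 ± 18.7 to 44.3 ± 9.49 CPM, as did EPCAM at few reads. Of the 8 tested markers 5 fell (62.5%) and 1 rose (12.5%), beside 20.7% and 21.3% of all tested genes. The lung markers were at or near 0, since SFTPB had no read, NKX2-1 had 0 to 10 reads per library and NAPSA 8 to 25. EPCAM had 4 to 16 reads and EGFR 17 to 38. Whether such low levels are those of the cells or arose in alignment or counting is not known. PTPRC and CD3E (leukocytes) and COL1A2 (fibroblasts) had no read in any library. The leukocyte list summed to 201 to 282 CPM in the control and 281 to 323 in the knockdown, mostly from the lysosomal gene CD68, which rose, while CD14 fell from 35.3 ± 6.40 to 21.6 ± 2.27 CPM. The fibroblast list reached 21.8 to 28.1 and 28.4 to 36.3 CPM, with LUM rising from 0.482 ± 0.233 to 3.45 ± 1.5 CPM (SD, n = 3 each). The endothelial list was at most 1.00 CPM. Whether these shifts play a part in the repair results was not tested.

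More repair genes fell than rose after the MYLK-AS1 siRNA. Of the 38 tested genes 15 fell (39.5%), 4 rose (10.5%) and 19 did not pass an adjusted p of 0.05. Over all 15391 tested genes 20.7% fell, 21.3% rose and 42.0% changed in either direction, so the members' share of falls was above that of the table and their share of rises below it. The groups did not overlap for 19 of the 38 members, against 52.2% of all tested genes, and a share this near the background is no result about the members. By sign alone 20 of the 38 members were lower and 18 higher. For the 32 that share under 20% of their exon bases with another gene, the median log2 fold change was -0.02. The median log2 fold change of all tested members was -0.13, and that of all tested genes was 0.00. Only 9 fell when knockdown replicate 1 was left out, and the median was -0.03 without control replicate 1, -0.28 without knockdown replicate 2 and -0.24 without control replicate 3. Leaving out replicate 3 of both groups together, a choice made after seeing the data, gave 15 falls, 4 rises and a median of -0.30. All 15 falls were among the 31 members at 10 CPM or more in the control, of which 48.4% fell, against 23.5% of the 9407 tested genes at that level. In these bulk samples, fewer cells in a phase of the cycle and less RNA per cell cannot be told apart.

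**Figure D1:**
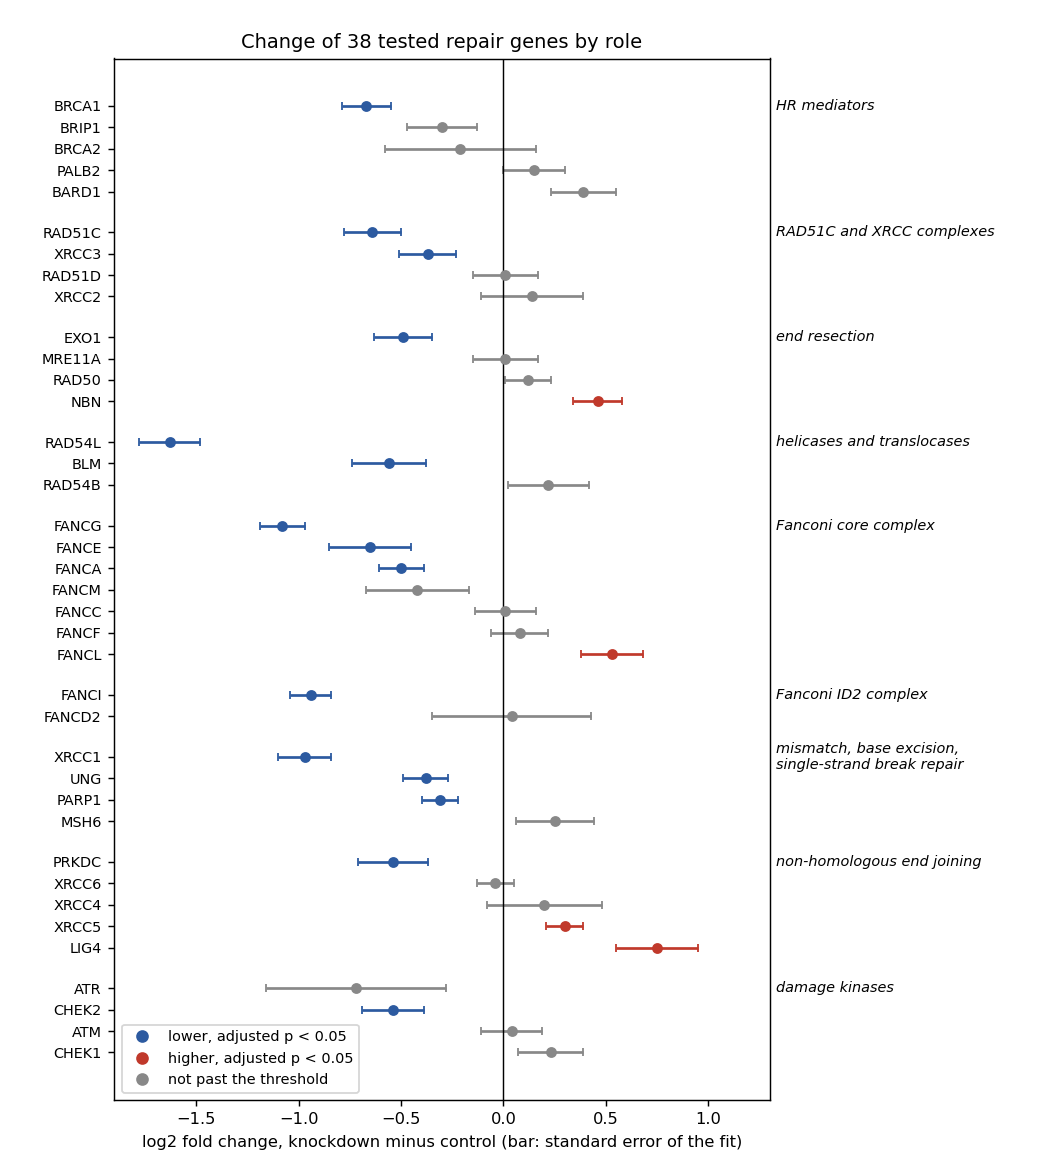
Log2 fold change (horizontal axis, knockdown minus control) of the 38 tested repair genes, grouped by role, with the standard error of the fit as a bar. RAD54L, FANCG, XRCC1 and FANCI lie farthest to the left, and LIG4, FANCL, NBN and XRCC5 are the 4 genes in red, which rose.

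RAD54L, the motor protein that remodels chromatin and recombination intermediates during strand exchange, fell most. It stood at 30.1, 28.7 and 33.2 CPM in control replicates 1 to 3 and at 9.22, 10.2 and 10.5 CPM in knockdown replicates 1 to 3. All 3 knockdown libraries were thus far below every control library, and the fitted level was 32.4% of the control (log2 fold change -1.63, SE 0.15, adjusted p = 1.63e-07). RAD54B, a related translocase, had 10.3 ± 1.71 and 12.0 ± 2.78 CPM in control and knockdown (SD, n = 3 each), and did not pass (log2 fold change 0.22, SE 0.20, adjusted p = 0.404). BLM, the helicase that dissolves joined recombination intermediates, read 17.8, 17.1 and 13.6 CPM in the control and 9.22, 11.2 and 12.7 CPM in the knockdown. It fell (log2 fold change -0.56, SE 0.18, adjusted p = 0.0177), but its nearest libraries were close together, and the adjusted p rose to 0.0757 without control replicate 1, 0.0703 without control replicate 2 and 0.0834 without knockdown replicate 1. Of the other parts of the BLM complex, RMI2 fell from 30.9 ± 1.04 to 8.25 ± 1.79 CPM (SD, n = 3 each), TOP3A rose from 56.6 ± 6.64 to 77.4 ± 1.32 CPM, and RMI1 had 11.4 ± 0.919 and 11.9 ± 3.39 CPM (adjusted p = 0.87). TOP3A and RMI1 were picked after their values were seen, as partners of a member.

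Among the recombination mediators, BRCA1 fell. This E3 ligase subunit and recombination mediator had 37.4, 39.1 and 39.9 CPM in the control and 23.0, 23.9 and 26.3 CPM in the knockdown, with a wide gap between the groups (log2 fold change -0.67, SE 0.12, adjusted p = 0.000305). Its obligate partner BARD1 did not move with it. BARD1 read 16.1, 15.7 and 12.4 CPM in the control and 16.5, 21.8 and 19.7 CPM in the knockdown, higher in 3 of 3 knockdown libraries, with an adjusted p of 0.0635 (log2 fold change 0.39, SE 0.16) that passed only without knockdown replicate 1 (0.0314). PALB2, which bridges BRCA1 and BRCA2, had 19.0 ± 1.53 and 21.2 ± 2.17 CPM (SD, n = 3 each; adjusted p = 0.422). BRIP1, the helicase that binds BRCA1, had 20.4, 20.4 and 14.3 CPM in the control and 16.0, 14.3 and 14.3 CPM in the knockdown. Control replicate 3 lay with the knockdown libraries (log2 fold change -0.30, SE 0.17, adjusted p = 0.165). Without that library the adjusted p was 0.0307, and without replicate 3 of both groups, a choice made after seeing the data, 0.0279. BRCA2, a mediator of strand exchange, was scarce, at 3.34, 2.41 and 1.83 CPM in the control and 1.46, 3.25 and 1.77 CPM in the knockdown. The groups overlapped, and 75 against 60 summed reads put the knockdown at 87.1% of the control (95% exact interval 61.0% to 124%, counting error only). This interval leaves out the spread between libraries, which the fitted test includes (log2 fold change -0.21, SE 0.37, adjusted p = 0.683). It therefore does not bound the change that could have been missed.

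RAD51C, RAD51D, XRCC2 and XRCC3 are related proteins that assist strand exchange, in a complex of RAD51C with XRCC3 and another that holds RAD51C, RAD51D and XRCC2. RAD51C fell, from 34.9, 35.3 and 34.0 CPM in the control to 19.3, 21.9 and 25.9 CPM in the knockdown (log2 fold change -0.64, SE 0.14, adjusted p = 0.00101). Its control libraries were within a narrow band that the knockdown libraries did not reach. XRCC3 was lower by less, with 28.8, 25.8 and 32.2 CPM against 23.1, 20 and 24.0 CPM (log2 fold change -0.37, SE 0.14, adjusted p = 0.0373). That call was lost without filtering (0.0549), with DESeq2 (0.0509), and without control replicate 1 (0.0794), control replicate 3 (0.124), knockdown replicate 1 (0.0604), knockdown replicate 2 (0.164) or replicate 3 of both groups (0.053). Of the exon bases of XRCC3, 76.7% lie under exons of KLC1 on the other strand, and no source says whether the counting used strand. KLC1 itself had 136 ± 1.98 and 125 ± 20.3 CPM (SD, n = 3 each; adjusted p = 0.443). RAD51D had 20.6 ± 3.11 and 20.7 ± 3.18 CPM (adjusted p = 0.957) and XRCC2 6.14 ± 1.49 and 6.78 ± 1.87 CPM (adjusted p = 0.687). RAD51D counts are uncertain, because a readthrough transcript into the next gene, RAD51L3-RFFL, is counted as a row of its own. That row rose by 1.36 on the log2 scale (SE 0.11), with control libraries at 52.2 ± 5.42 CPM and knockdown libraries at 134 ± 9.96 (SD, n = 3 each), and how reads of shared exons were divided is not given.

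Of the 4 tested genes of end resection 1 rose and 1 fell, 25.0% each, near the 21.3% and 20.7% of all tested genes. NBN, the subunit that ties the MRE11 nuclease to the ATM kinase, rose from 48.2, 41.5 and 44.3 CPM to 53.2, 65.9 and 65.4 CPM (log2 fold change 0.46, SE 0.12, adjusted p = 0.00471). Its lowest knockdown library was knockdown replicate 1, still above every control library. The other subunits did not pass: RAD50 had 59.4 ± 5.38 and 64.8 ± 3.96 CPM (SD, n = 3 each; adjusted p = 0.392), and the nuclease MRE11A (MRE11 in current naming) 16.2 ± 0.862 and 16.4 ± 2.92 CPM (adjusted p = 0.969). EXO1, the exonuclease of long-range resection, fell from 35.8, 37.9 and 27.6 CPM to 22.3, 26.8 and 23.1 CPM (log2 fold change -0.49, SE 0.14, adjusted p = 0.0118). Its control replicate 3 and knockdown replicate 2 nearly met, and the call was lost without control replicate 2 (0.0784) or knockdown replicate 1 (0.0531). RBBP8 had 1, 3 and 1 reads in the control and 3, 2 and 1 in the knockdown, at or under the floor of 3 reads, so no comparison was made.

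In the Fanconi pathway a core complex adds ubiquitin to the clamp of FANCD2 and FANCI, which then recruits the nucleases. FANCG, a scaffold of the core, fell from 72.4, 69.2 and 62.1 CPM to 31.2, 32.9 and 32.4 CPM, and the knockdown libraries were nearly equal (log2 fold change -1.08, SE 0.11, adjusted p = 9.87e-07). FANCA, which pairs with FANCG, fell from 52.8, 56.0 and 59.0 CPM to 37.1, 42.9 and 39.2 CPM (log2 fold change -0.50, SE 0.11, adjusted p = 0.00198). FANCE, which touches FANCD2, fell from 11.1, 10.4 and 10.8 CPM to 5.84, 8.39 and 6.42 CPM (log2 fold change -0.65, SE 0.20, adjusted p = 0.0133). The groups were apart for both, although FANCE lost its call without knockdown replicate 1 (0.0615). FANCL, the ubiquitin ligase subunit that does the catalytic step, went the other way. It read 19.8, 16.7 and 22.0 CPM in the control and 23.8, 28.7 and 32.2 CPM in the knockdown, a small gap between control replicate 3 and knockdown replicate 1 (log2 fold change 0.53, SE 0.15, adjusted p = 0.0095). That rise did not pass without control replicate 2 (0.0644). FANCC (17.1 ± 0.731 and 17.4 ± 1.83 CPM) and FANCF (19.2 ± 1.34 and 20.3 ± 1.62 CPM; SD, n = 3 each) had adjusted p-values of 0.948 and 0.68. FANCM, the helicase that anchors the core on DNA, had 5.23, 7.42 and 4.76 CPM against 4.93, 3.67 and 4.37 CPM, with groups that overlapped (log2 fold change -0.42, SE 0.25, adjusted p = 0.191). FANCB, a partner of FANCL, had 3, 2 and 1 reads in the control and 0, 6 and 0 in the knockdown. With 6 against 6 reads, the interval of its ratio, 29.1% to 407% of the control, sets no useful limit.

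FANCI fell from 149, 147 and 124 CPM to 69.3, 74.4 and 74.8 CPM (log2 fold change -0.94, SE 0.10, adjusted p = 1.13e-06), to 52.0% of the control in the fit. FANCD2, the partner in that clamp, was listed at 3.11, 2.70 and 1.65 CPM in the control and 1.19, 3.56 and 3.00 CPM in the knockdown. Its reads summed to 74 and 69, which puts the knockdown at 102% of the control (95% exact interval 72.1% to 143%, counting error only). The level of FANCI per kilobase of its longest annotated transcript was 29.5 CPM in the control, and that of FANCD2 was 0.476, although their proteins act as a pair.

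**Figure D2:**
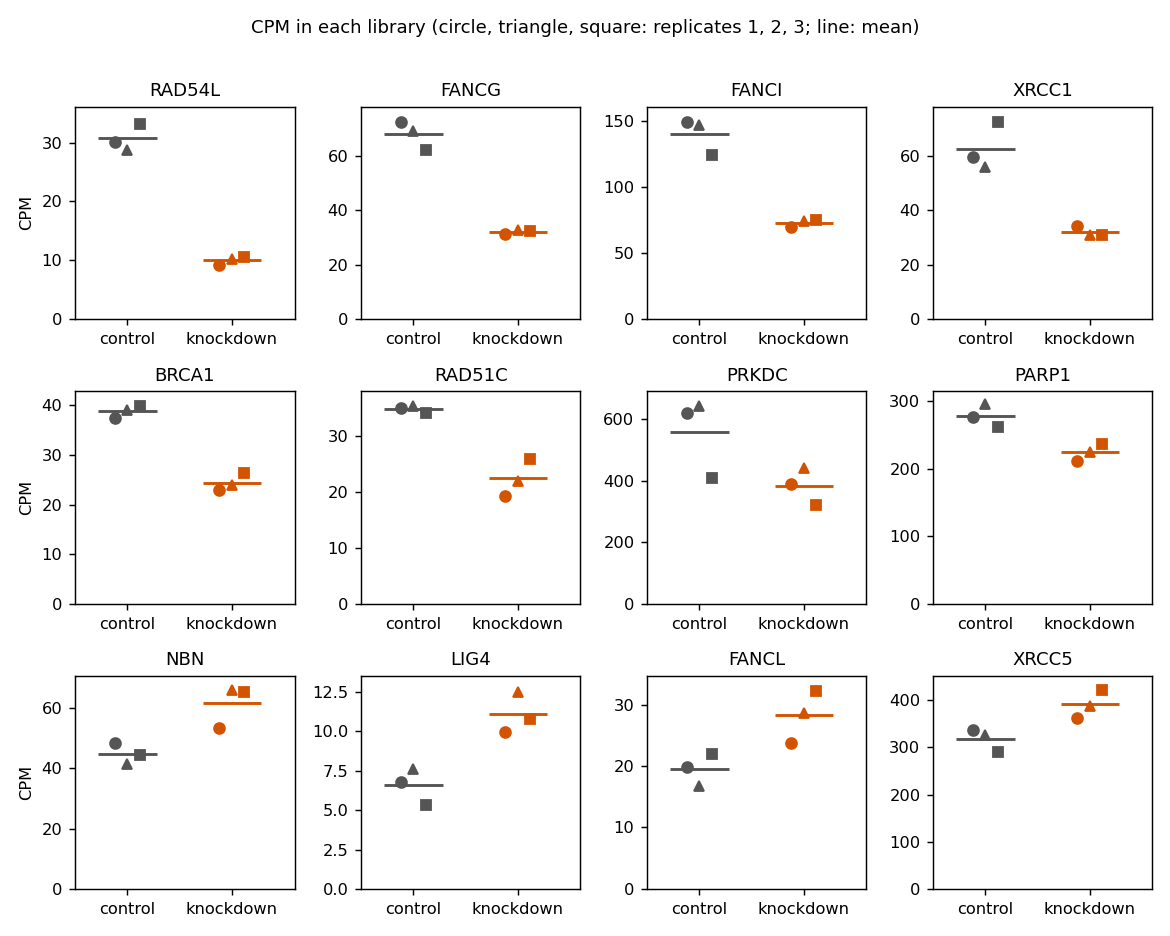
CPM (vertical axes, each from 0) of 12 repair genes in each of the 6 libraries, with the mean of each group as a line. The first 8 panels show genes that fell and the last 4 show genes that rose. PRKDC is the panel in which the groups overlap, since control replicate 3 (409 CPM) lies below knockdown replicate 2 (440 CPM).

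Of 4 genes of mismatch, base excision and single-strand break repair, 3 fell, beside 20.7% of all tested genes and 23.5% of those at 10 CPM or more. In a group this small that share is a description only. XRCC1, the scaffold on which single-strand breaks are closed, fell from 59.5, 55.7 and 72.2 CPM to 34.2, 30.7 and 30.9 CPM (log2 fold change -0.97, SE 0.13, adjusted p = 9.62e-06). Its ligase partner LIG3, chosen after its value was seen, fell too (log2 fold change -0.94, SE 0.12), with 69.6 ± 7.87 CPM in the control libraries and 36.1 ± 2.46 in the knockdown libraries (SD, n = 3 each). UNG, the glycosylase that cuts out uracil, fell from 52.1, 53.2 and 51.6 CPM to 42.9, 38.7 and 39.0 CPM (log2 fold change -0.38, SE 0.11, adjusted p = 0.0112). The groups did not overlap, but the adjusted p was 0.0578 without knockdown replicate 2. PARP1, the sensor of strand breaks that makes poly(ADP-ribose), fell from 277, 295 and 261 CPM to 211, 225 and 236 CPM, a modest change at a high level (log2 fold change -0.31, SE 0.09, adjusted p = 0.00991). Its adjusted p was 0.0678 without control replicate 2 and 0.053 without knockdown replicate 1. MSH6, which recognises mismatches as a dimer, had 13.3 ± 2.60 and 15.7 ± 3.45 CPM (SD, n = 3 each; log2 fold change 0.25, adjusted p = 0.312).

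Of the 5 end joining genes 2 rose and 1 fell, beside 21.3% and 20.7% of all tested genes, and in a group this small the shares are a description only. LIG4, the ligase that seals the ends, had the greatest rise of all members, from 6.79, 7.61 and 5.31 CPM to 9.95, 12.5 and 10.8 CPM (log2 fold change 0.75, SE 0.20, adjusted p = 0.00578). Every knockdown library was above every control library. XRCC4, which holds LIG4, had 3.42 ± 0.787 and 3.94 ± 0.679 CPM (SD, n = 3 each; adjusted p = 0.604). XRCC5, the larger Ku subunit, rose from 337, 326 and 290 CPM to 363, 389 and 423 CPM (log2 fold change 0.30, SE 0.09, adjusted p = 0.0148). XRCC6, the smaller Ku subunit, read 395, 395 and 359 CPM in the control and 354, 353 and 408 CPM in the knockdown, with groups that overlapped (log2 fold change -0.04, SE 0.09, adjusted p = 0.732). PRKDC, the gene of the kinase DNA-PKcs, had 619, 640 and 409 CPM in the control and 389, 440 and 320 CPM in the knockdown. It fell (log2 fold change -0.54, SE 0.17, adjusted p = 0.0342), with replicate 3 lowest in each group. The call was lost without scaling factors (0.0588) and without control replicate 1 (0.111), control replicate 2 (0.079), knockdown replicate 1 (0.074) or knockdown replicate 3 (0.0851). Without replicate 3 of both groups the log2 fold change was -0.60 (adjusted p = 3.9e-08). That choice was made after seeing the data and leaves out the lowest library of each group, so its p-value does not restore the call. With the replicate number as a block it was -0.52 (adjusted p = 0.000152).

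Of the 4 kinases 1 fell, a share of 25.0% near the 20.7% of all tested genes. CHEK2, the checkpoint kinase downstream of ATM, went from 26.5, 23.4 and 29 CPM to 16.7, 20.5 and 16.8 CPM, with no overlap (log2 fold change -0.54, SE 0.15, adjusted p = 0.0061). CHEK1, the kinase downstream of ATR, had 14 ± 1.51 and 16.4 ± 1.43 CPM (SD, n = 3 each; log2 fold change 0.23, adjusted p = 0.263). ATM had 34.7, 34.1 and 24.4 CPM in the control and 33.7, 35.4 and 26.5 CPM in the knockdown, and the third library was lowest in each group (log2 fold change 0.04, SE 0.15, adjusted p = 0.844). ATR was scarce, at 1.45, 1.35 and 1.56 CPM in the control and 0.548, 0.839 and 1.37 CPM in the knockdown. Its log2 fold change of -0.72 (SE 0.44) had an adjusted p of 0.202, and its 44 and 24 summed reads put the knockdown at 59.4% of the control (95% exact interval 34.5% to 99.8%, counting error only). That interval leaves out the spread between libraries, which the fitted test includes (unadjusted p = 0.119), so no difference is read from it.

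Genes whose proteins work as a pair were compared within each library, as the log2 ratio of their CPM, which no scaling of the libraries can change. The 10 pairs were chosen after the values of their members were seen. The groups did not overlap for 5 pairs. Of single tested genes 52.2% did not overlap, and the share over other gene pairs was not computed, so the count of 5 is a description only. BRCA1 over BARD1 was 1.21, 1.32 and 1.69 in the control and 0.48, 0.13 and 0.42 in the knockdown. That is a difference of -1.06, the greatest of the 10. CHEK2 over CHEK1 went from a mean of 0.91 ± 0.31 to 0.13 ± 0.11 (SD, n = 3 each), and LIG4 over XRCC4 from 0.95 ± 0.25 to 1.5 ± 0.25. The ratio of the Ku subunits, XRCC5 over XRCC6, moved little but with a small spread, from -0.27 ± 0.04 to 0.08 ± 0.06. NBN over RAD50 went from -0.41 ± 0.22 to -0.08 ± 0.10. Each of these 5 had p = 0.1 in a two-sided exact permutation test, the smallest that 3 against 3 libraries can give, and 0.2 after Benjamini-Hochberg adjustment over the 10 pairs. The other 5 pairs overlapped between groups, with exact permutation p-values of 0.3 to 0.7. FANCI over FANCD2 was among them, at 5.86 ± 0.34 and 4.96 ± 0.79, since the few FANCD2 reads spread widely.

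**Figure D3:**
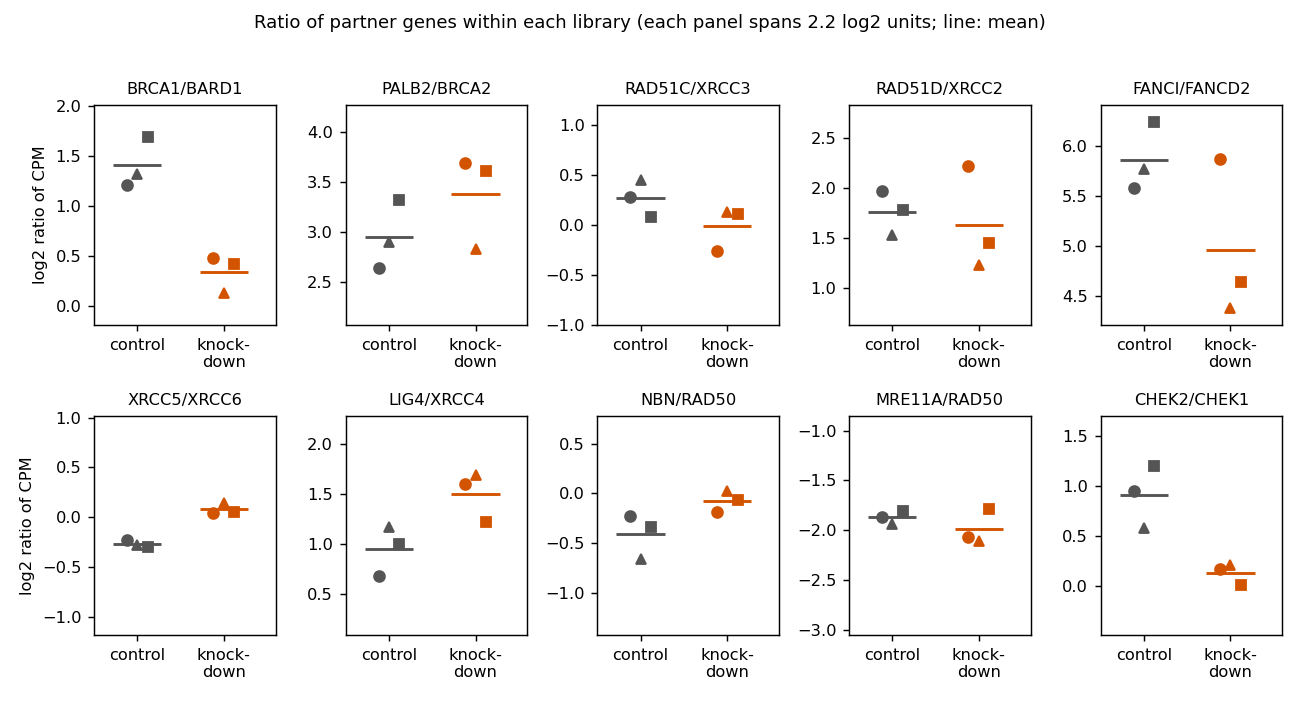
Log2 ratio of the CPM of 10 gene pairs (vertical axes, each spanning the same range) in each library, with circles, triangles and squares for replicates 1 to 3 and a line at the group mean. The groups are apart for BRCA1/BARD1, XRCC5/XRCC6, LIG4/XRCC4, NBN/RAD50 and CHEK2/CHEK1.

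The members differed widely in level. Per kilobase of the longest annotated coding transcript, control levels ran from 0.0498 CPM for RBBP8 and 0.0685 for FANCB to 141 for XRCC6. XRCC6, XRCC5 (84.5), PARP1 (70.1) and PRKDC (41.1) were the most abundant, above 86.7% or more of 11887 tested coding genes. BRCA1, at 5.34 CPM per kilobase, stood above 42.4% of them. ATR (0.176) and BRCA2 (0.211) stood above only 1.11% and 1.51%, and FANCD2 (0.476) above 5.65%. The table does not show whether such low levels are those of the cells or arose in alignment or counting, so the values and intervals of these genes describe the counted reads only. PRKDC and BRCA2, at opposite ends of this order, have longest transcripts of 13509 and 11986 bases. The 7 tested members under 10 CPM held 1 rise, LIG4, and no fall by edgeR's test, and none of the other 6 had an unadjusted p under 0.05. Of all 5984 tested genes under 10 CPM, 840 rose and 969 fell (16.2%), so 1 rise in 7 is near the background. In the self-check on simulated counts, 19 of 65 genes changed by 0.5 (log2) were recovered over all tested levels. That self-check changed only 200 genes, whereas 42.0% of tested genes were called here. Its recovery rate therefore does not carry over to these data.

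**Figure D4:**
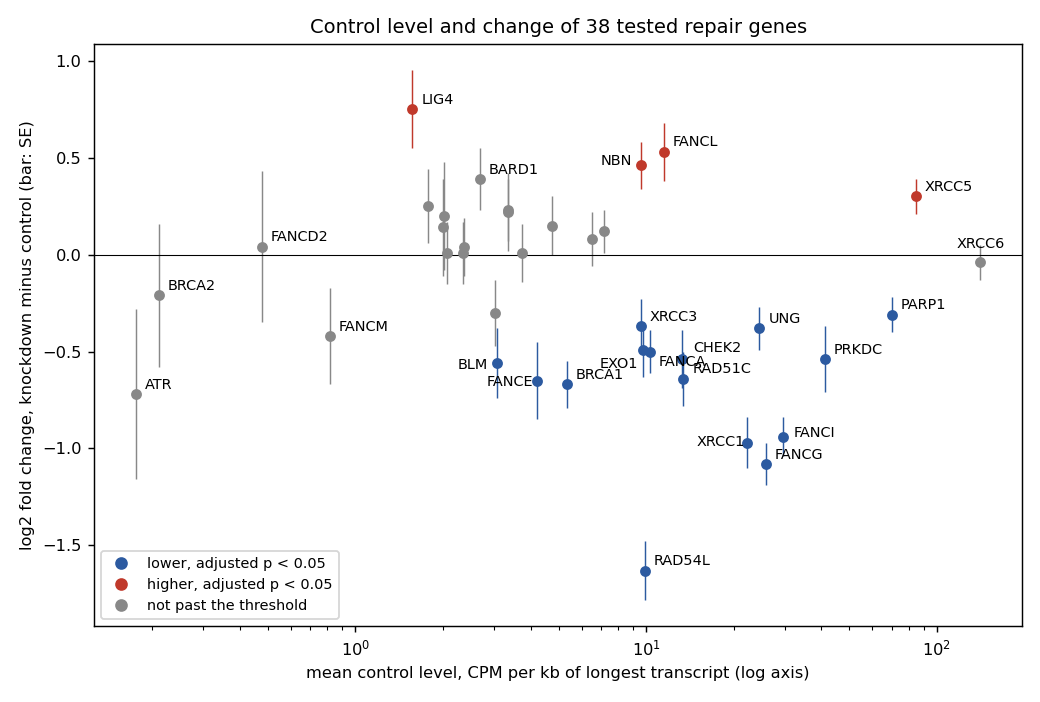
Mean control level per kilobase (horizontal axis, log scale) and log2 fold change (vertical axis, with standard error) of the 38 tested repair genes. Genes that fell lie between 3.07 (BLM) and 70.1 (PARP1) CPM per kilobase, and the scarce genes on the left have wide errors.

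The wider repair network was described by its counts. Of 126 further repair genes 122 were tested; 32 fell (26.2%), 18 rose (14.8%) and the median log2 fold change was -0.11. Beside them, 20.7% of all tested genes fell and 21.3% rose. The share that changed in either direction, 41.0%, and the share without overlap, 49.2%, were near the 42.0% and 52.2% of all tested genes. Falls were most frequent among the 35 tested genes of recombination and junction processing, of which 14 fell and 3 rose (median -0.40). The list of base excision and single-strand breaks had 7 falls (29.2%) and 4 rises (16.7%) among 24. The nucleotide excision list had 2 falls and 2 rises among 20, and the mismatch list 1 rise and 0 falls among 6. The 5 falls with the lowest p were DDB2, the sensor of ultraviolet damage (156 ± 3.20 to 62.7 ± 2.58 CPM; SD, n = 3 each), H2AFX, the histone variant phosphorylated at breaks (57.8 ± 6.94 to 17.8 ± 0.203), RMI2, RBX1, a subunit of cullin ubiquitin ligases (55.0 ± 6.21 to 24.9 ± 2.59), and EME1, a subunit of the MUS81 junction nuclease (31.5 ± 1.52 to 13.9 ± 0.424). The 5 rises with the lowest p were TDG, the thymine DNA glycosylase (14.2 ± 2.47 to 36.2 ± 7.0 CPM), NEIL2, a glycosylase for oxidised bases (27.6 ± 3.17 to 47.1 ± 2.24), SFR1 (12.0 ± 1.36 to 21.8 ± 1.43), FAM175A, the scaffold of the BRCA1-A complex (8.98 ± 1.68 to 17.8 ± 3.21), and TDP2 (37.7 ± 0.870 to 54.0 ± 3.25).

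Cell cycle genes moved in the same libraries. Of 43 tested genes of G2 and mitosis 41 fell and 0 rose (median -1.25), and the 2 that did not pass had negative values too. By DESeq2 42 fell and 0 rose. Of 49 genes of S phase and replication 25 fell and 4 rose (median -0.31). The number of S phase genes that rose was 2 without control replicate 1, 2 or 3 or without knockdown replicate 2 or 3, and 1 without replicate 3 of both groups. The share of falls was thus 39.5% for the members, 51.0% for S phase and 95.3% for mitosis, beside 20.7% of all tested genes. The difference between these lists, and the part of the cell cycle in the members' falls, was not tested.

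**Figure D5:**
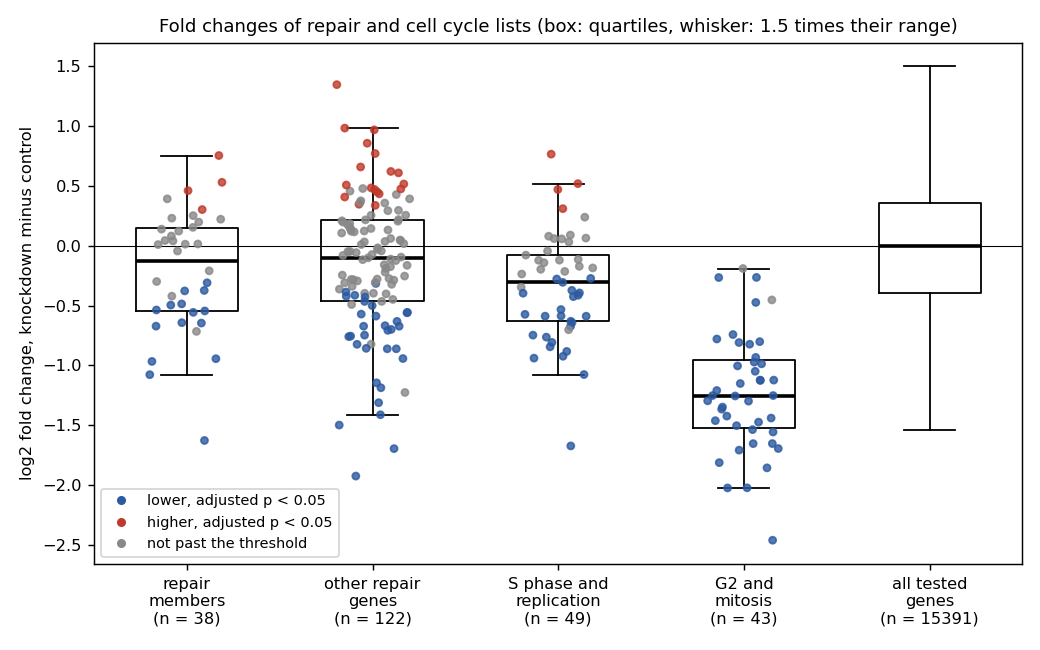
Log2 fold change (vertical axis) of each tested gene in 4 lists, as points over a box of the quartiles, with all 15391 tested genes as a box alone. The medians are -0.13 for the repair members, -0.11 for other repair genes, -0.31 for S phase, -1.25 for G2 and mitosis and 0.00 for all tested genes.

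Promoters are shown for the 4 fallen members with the lowest p among those with a RefSeq entry, and for LIG4 and FANCL, the 2 genes that rose and have an entry. Each line gives the 250 bases before a RefSeq start (build GRCh38.p14), 5′ to 3′ on the gene's strand, and the capitals mark CCAAT on either strand (ATTGG on the reverse), the box bound by NF-Y in many cell cycle promoters. RAD54L, BRCA1 and LIG4 have further starts, and for BRCA1 and LIG4 a window with the box was printed although others of theirs lack it. RAD54L lies at chr1:46247438-46247687 (plus strand), FANCG at chr9:35079943-35080192 (minus), XRCC1 at chr19:43575528-43575777 (minus), BRCA1 at chr17:43125365-43125614 (minus), LIG4 at chr13:108215537-108215786 (minus) and FANCL at chr2:58241326-58241575 (minus).
RAD54L: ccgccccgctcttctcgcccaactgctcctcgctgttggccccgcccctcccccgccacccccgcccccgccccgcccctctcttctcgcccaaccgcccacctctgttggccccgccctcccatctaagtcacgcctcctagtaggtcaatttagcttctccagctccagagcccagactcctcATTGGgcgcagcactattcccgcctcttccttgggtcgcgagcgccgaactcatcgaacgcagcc
FANCG: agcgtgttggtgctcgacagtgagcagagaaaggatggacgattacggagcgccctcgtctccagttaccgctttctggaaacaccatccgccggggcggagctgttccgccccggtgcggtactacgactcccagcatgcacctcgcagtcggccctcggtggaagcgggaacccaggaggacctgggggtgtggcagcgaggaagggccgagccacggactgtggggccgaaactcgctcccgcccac
XRCC1: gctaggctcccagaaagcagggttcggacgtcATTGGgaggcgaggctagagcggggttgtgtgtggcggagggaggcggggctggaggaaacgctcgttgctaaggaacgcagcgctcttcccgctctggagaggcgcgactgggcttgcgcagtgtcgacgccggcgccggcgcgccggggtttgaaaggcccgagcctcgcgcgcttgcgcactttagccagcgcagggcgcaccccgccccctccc
BRCA1: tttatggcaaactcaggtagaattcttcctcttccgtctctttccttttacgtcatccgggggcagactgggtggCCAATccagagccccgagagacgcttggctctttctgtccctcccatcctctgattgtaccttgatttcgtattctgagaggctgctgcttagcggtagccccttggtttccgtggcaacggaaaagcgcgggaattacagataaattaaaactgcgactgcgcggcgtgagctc
LIG4: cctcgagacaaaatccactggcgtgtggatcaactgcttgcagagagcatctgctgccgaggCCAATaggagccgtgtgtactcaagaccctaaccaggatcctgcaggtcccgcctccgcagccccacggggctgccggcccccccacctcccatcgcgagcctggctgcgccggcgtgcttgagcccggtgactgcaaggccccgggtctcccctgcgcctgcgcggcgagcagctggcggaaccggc
FANCL: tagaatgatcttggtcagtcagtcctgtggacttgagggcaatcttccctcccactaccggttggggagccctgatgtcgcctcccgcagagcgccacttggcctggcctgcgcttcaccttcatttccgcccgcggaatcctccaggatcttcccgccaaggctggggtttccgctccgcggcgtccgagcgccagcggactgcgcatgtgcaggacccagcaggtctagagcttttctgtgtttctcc

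RefSeq windows of 300 bases (250 before a start and 50 after) were matched for 35 of the 40 members. CCAAT on either strand was present in 19 of the 35 (54.3%), against 42.4% of the 9705 tested genes with a window and 34.6% of all 35116 windows. It was held by 8 of 13 fallen members, RAD54L, XRCC1 and BRCA1 among them, by 1 of 2 that rose and by 10 of 20 others. The E2F motif, searched as TTTCGCGC or TTTGGCGC on both strands, was present for EXO1, FANCC and XRCC6, or 8.57% of members, against 2.41% of tested genes and 1.15% of all windows. Of these 3 genes EXO1 fell, and FANCC and XRCC6 did not pass. The matches of EXO1 and XRCC6 lie after the start, and only that of FANCC lies before it. The cell cycle homology region, TTTGAA on both strands, was held by 14.3% of members, 13.3% of tested genes and 15.2% of all windows. None of the motifs contains another, genes with several starts had more windows to match, and a match shows only that the letters are there.

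The bases AGCTTA in a 3′ UTR went with lower levels across this table in earlier work on these data, so the members' longest annotated 3′ UTRs (GENCODE release 29, GRCh38) were searched for them. Over 11772 tested genes, 23.9% of those with AGCTTA and 18.6% of those without it fell, and 39.7% of the 368 with the longer CAGCTTAA fell (median log2 fold change -0.24). Rises numbered 738 of the 3242 with AGCTTA, 2211 of the 8530 without it and 54 of the 368 with CAGCTTAA. The word was picked from these same data, so its shares of falls are no independent evidence for it. Of the 38 tested, 8 hold AGCTTA (21.1%, against 27.5% of all), and of these 2 fell, BRCA1 and FANCI, and 1 rose, NBN, whereas 13 of the 30 without it fell. For 6 of the 8 members 1 site each is printed below, in the sense of the mRNA with AGCTTA in capitals. They show the fallen genes that carry the word and some carriers that did not pass. RAD51D has 4 sites and MSH6 has 3. No site is printed for NBN, which rose, or for MRE11A, which did not pass. MSH6 and RAD51D, the only tested members with the whole CAGCTTAA, had log2 fold changes of 0.25 and 0.01. The sites lie at chr17:43045619-43045644 (BRCA1, minus strand), chr15:89316890-89316915 (FANCI, plus), chr2:47807156-47807181 (MSH6, plus), chr17:35093397-35093422 (RAD51D, minus), chr7:152647335-152647360 (XRCC2, minus) and chr2:214726527-214726552 (BARD1, minus).
BRCA1: cccaagaatgAGCTTAcaaagtggcc
FANCI: tgagcaaaggAGCTTAatgctaaggt
MSH6: tacttgtctcAGCTTAatgcaggaaa
RAD51D: taatagcctcAGCTTAagtttgagtt
XRCC2: gtaaacagacAGCTTAcagaatggga
BARD1: aactaacaaaAGCTTAtcttttttaa

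The longest annotated 3′ UTR need not be the one used in these cells, and that of RAD51D has 8745 bases. Genes with the word have longer 3′ UTRs (median 2884 bases, against 978 without it), and these shares take no account of length.

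Some counts could hold reads of overlapping genes. At least 20% of the annotated exon bases are shared with another gene, on either strand, for RAD54L (25.1%), XRCC1 (24.0%), XRCC3 (76.7%), RAD50 (79.7%), RAD54B (59.1%) and FANCA (23.6%). LRRC41, which overlaps RAD54L on the other strand, had 67.2 ± 1.00 and 69.9 ± 2.82 CPM (SD, n = 3 each; log2 fold change 0.06, adjusted p = 0.682). ZNF276, which overlaps FANCA, had 23.6 ± 1.14 and 29.4 ± 5.06 CPM (log2 fold change 0.32, adjusted p = 0.0818), the opposite sign from FANCA. FSBP, which shares exons with RAD54B on the same strand, rose by 0.66 on the log2 scale (SE 0.20, adjusted p = 0.0133), with 5.88 ± 0.657 and 9.32 ± 0.877 CPM in the groups. FANCL, which rose, lies just under the limit, with 19.7% of its exon bases shared with genes on the other strand. VRK2 is among these genes, and it had no read in any library. Among the 32 tested members that share under 20%, FANCL included, 11 fell (34.4%) and 4 rose (12.5%), with a median log2 fold change of -0.02.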

How the data were processed

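The authors deposited a table of raw read counts, 1 row per gene symbol, for 6 libraries. RNA was taken with Trizol and libraries were made by an Ion Proton protocol, per the labels' protocols. The submitters' processing notes name GRCh38. Aligner, counter, annotation and use of strand: not given in the sources used here. Library totals were 7551303 to 11055408 reads, so 3 reads, the floor for a gene with 0, are 0.274 to 0.410 CPM. Knockdown was compared with control by edgeR 4.0.16 (R 4.3.3) with filterByExpr, TMM factors and the robust quasi-likelihood F test (two-sided), with Benjamini-Hochberg adjustment over all 15391 genes that passed the filter. SE is the log2 fold change over the square root of F. Exact intervals are conditional on the summed reads. On simulated counts the test recovered 19 of 65 genes changed by 0.5, 43 of 65 by 1 and 65 of 66 by 2 (log2), with 12 false among 139 calls over 15115 genes. The simulation changed 200 genes, far fewer than the 42.0% called in the real counts, so its rates do not carry over to them. Alternatives were RLE, upper quartile or no factors, no filter, 5 CPM in 3 libraries, DESeq2 1.42.0, limma-voom (limma 3.58.1), the repeat number as a block, leaving out each library and, chosen after seeing the data, leaving out replicate 3 of both groups. Members, lists and tests were chosen with earlier results of these data known. Values per library are given for members that rose, the 14 falls with the lowest p, BRCA1, BRCA2, ATM, ATR, PARP1, PRKDC and the 3 members nearest each side of the threshold, with the 5 lowest p in each direction of the other repair genes. Other members and partners named with such values were chosen after they were seen. Gene models came from GENCODE release 29, and promoters from RefSeq. Of the symbols, MRE11A was matched as MRE11 through RefSeq synonyms.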

Additional observations from a re-analysis of the deposited data

How the results depend on the processing

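Under 15 alternatives, 11 of the 19 called members kept their call in every one, 2 of 19 uncalled members (BARD1 and BRIP1) passed in some, and none of the called members changed sign. The number of members that fell was 14 or 15 under the alternatives of scaling, filter, tool and block, and 9 to 15 when 1 library was left out. The number that rose was 4 and 3 to 5. The members' median log2 fold change of -0.13 was -0.01 without filtering, where RBBP8 and FANCB enter, -0.28 to -0.03 with 1 library left out and -0.30 without replicate 3 of both groups. The S phase genes that rose numbered 4, but 2 to 4 with 1 library left out and 1 without replicate 3 of both groups. With fewer libraries the test has less to work with, and the cause of the other shifts was not tested. With the replicate number as a block, 15 members fell and 4 rose, as without it, and 3200 genes in all fell and 3321 rose, against 3183 and 3274. The labels do not say whether same-numbered libraries were paired. Deviations of same-numbered libraries correlated by -0.0584, 0.0902 and 0.0732, and not every library correlated best with its own number. These values do not settle whether the libraries were paired. Few reads limit what can be said of ATR, BRCA2, FANCD2, FANCB and RBBP8, which had at most 3.56 CPM in any library, and whether the counting plays a part was not tested.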
